A study of Mus musculus with 15 samples.

Results

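The histone acetyltransferases p300 (Ep300), CBP (Crebbp), GCN5 (Kat2a), PCAF (Kat2b) and TIP60 (Kat5) and the bromodomain and extraterminal domain (BET) proteins BRD2 and BRD3 were followed as 7 genes through primary mouse chondrocytes treated with 4 inhibitors or vehicle. The genes were chosen with earlier results of these data known. Their probe sets were taken by gene symbol alone, as all that the array's annotation assigns to 1 of these genes. That gave 19 of 45037 probe sets and 7 of 18193 genes. Ep300 had 1 probe set, Kat5 and Brd2 had 2 each, Kat2a and Kat2b had 3 each, and Crebbp and Brd3 had 4 each. One of the 4 Crebbp probe sets (1459804_at) had a mean below a signal of 50 in every treatment and was not tested, so that 18 of 19 were tested. Trichostatin A gave the lowest mean signal of all 7 genes, and 4 of them fell against vehicle (Crebbp, Kat2a, Kat5 and Brd2), whereas 3 rose in LY294002 (Ep300, Brd2 and Brd3) and none passed the threshold in UO126 or SB202190. Over all probe sets tested, 43.6% passed in Trichostatin A and 8.62% in LY294002. The 3 LY294002 calls did not hold when the 6 arrays of both groups were fitted alone or when certain single arrays were left out. They held when the replicate number was added to the fit as a block.

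Cartilage from the hind limbs of CD1 mouse embryos at day 15.5 was dissected and the chondrocytes were grown as a primary monolayer, in 3 biological replicates per treatment, and the RNA of each culture was read on 1 Affymetrix array, 15 arrays in all. The groups were DMSO, the vehicle; LY294002, an inhibitor of the lipid kinase PI3K; UO126, an inhibitor of the kinase MEK; SB202190, labelled SB90, which the deposited design text groups with the MEK/ERK inhibitors and which is otherwise known as an inhibitor of the kinase p38; and Trichostatin A, an inhibitor of histone deacetylases. All groups were of this 1 strain, and no genetic change or further agent is named for any of them. The labels give 24 h of treatment, as the paper does for DMSO and LY294002, whereas the deposited design text gives 2 h. The doses of UO126, SB202190 and Trichostatin A are not given in the sources used here. Monolayer culture of dissected cartilage can hold cells other than chondrocytes, and RNA was taken from the whole culture.

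Histone acetyltransferases transfer an acetyl group from acetyl coenzyme A to lysines of histone tails and of other proteins, and deacetylases remove it. p300 and CBP are related coactivators recruited by many transcription factors, GCN5 and PCAF are alternative catalytic subunits of the SAGA and ATAC complexes, and TIP60 is the catalytic subunit of the NuA4 complex. BET proteins hold paired bromodomains that bind acetylated lysines and bring transcription elongation factors to chromatin. In chondrocytes p300 and CBP are known as coactivators of SOX9, the transcription factor that drives the cartilage matrix genes. LY294002 is also known, apart from PI3K, to bind the bromodomains of BET proteins.

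Values are log2 signals normalized between arrays, and a difference of 1 on this scale is a 2-fold change. The brightest probe set of a gene, by its mean signal in all 15 arrays, stands for that gene, and limma was fitted to all 15 arrays with 1 mean per treatment. Differences are given with their standard error (SE) and with p values adjusted over all probe sets tested (Benjamini-Hochberg), with a threshold of 0.05. The median SE over all probe sets was 0.10, and the precision is limited by the 3 arrays per group. Array medians lay between 6.90 and 6.996. Signals of different probe sets are not comparable as levels of the genes, so that only differences between treatments are compared.

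**Figure D1:**
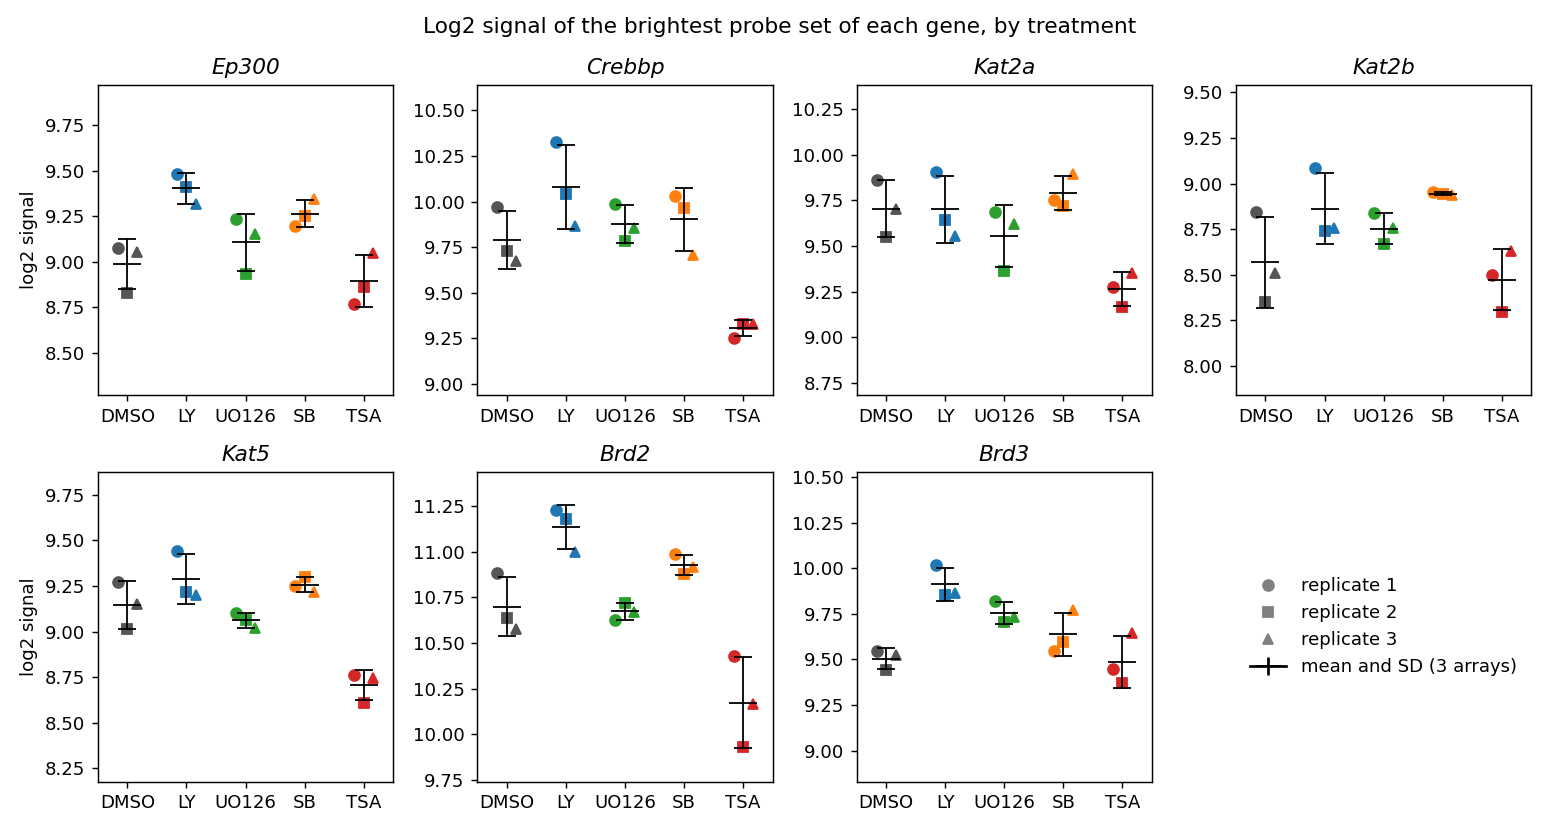
Log2 signal of the representative probe set of each of the 7 genes (y axis) in the 5 treatments (x axis), with 1 marker for each array, its shape giving the replicate number, and the mean with its SD (n = 3) as a line and bar; each panel spans the same range of log2 units. The Trichostatin A mean is the lowest in every panel, and for Brd2 its arrays lie at 10.43, 9.93 and 10.16 against 10.88, 10.64 and 10.58 in DMSO.

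Ep300 encodes p300. Its log2 signal was 9.08, 8.83 and 9.06 in the DMSO arrays and 9.48, 9.41 and 9.32 in the LY294002 arrays. It was 9.23, 8.94 and 9.15 in UO126, 9.20, 9.25 and 9.35 in SB202190, and 8.77, 8.86 and 9.05 in Trichostatin A. All LY294002 and all SB202190 arrays lay above all DMSO arrays, while the UO126 and Trichostatin A arrays overlapped those of DMSO. Ep300 rose by 0.42 (SE 0.10) in LY294002, a fold of 1.33 with an adjusted p of 0.0178. The difference was 0.28 in SB202190 (adjusted p 0.229), 0.12 in UO126 (adjusted p 0.863) and -0.09 in Trichostatin A (adjusted p 0.482, 95% interval -0.31 to 0.12). 

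Crebbp encodes CBP, the close relative of p300. Its log2 signal was 9.97, 9.73 and 9.67 in DMSO, 10.33, 10.04 and 9.87 in LY294002, and 9.25, 9.33 and 9.33 in Trichostatin A. UO126 arrays were at 9.99, 9.78 and 9.86 and SB202190 arrays at 10.03, 9.97 and 9.71. The Trichostatin A arrays lay below all other 12 arrays and were the closest to one another, with a SD of 0.04, whereas the kinase inhibitor arrays overlapped those of DMSO. Crebbp fell by 0.49 (SE 0.12) in Trichostatin A, a fold of 0.714 with an adjusted p of 0.0029. In LY294002 the difference was 0.29 (adjusted p 0.145), and with the replicate number as a block it was past the threshold with an adjusted p of 0.0364. Of its other probe sets, 1436983_at fell by 0.50 in Trichostatin A (adjusted p 0.0398) and 1434633_at differed by -0.07 (adjusted p 0.483), so that the probe sets of this gene differed in the size of the change.

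Setting the pair side by side, the log2 ratio of Ep300 to Crebbp was 0.39 higher in Trichostatin A than in DMSO, and it was higher in each of the 3 same-numbered pairs (0.41, 0.43 and 0.34). The replicate numbers were not taken to pair Trichostatin A with DMSO, so those pairs match by number alone. The ratio rests on the brightest Crebbp probe set. From DMSO to Trichostatin A, the mean of 1434633_at went from 8.16 to 8.09 and that of 1436983_at from 9.33 to 8.83. In LY294002 the ratio differed from DMSO by 0.13, with a SD of 0.15 over the arrays. These ratios are descriptions with no test, and a ratio of signals on different probes carries no level.

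Kat2a and Kat2b encode GCN5 and PCAF, which take each other's place in the same complexes. Kat2a had a log2 signal of 9.86, 9.55 and 9.70 in DMSO, 9.90, 9.64 and 9.55 in LY294002, 9.69, 9.36 and 9.62 in UO126 and 9.75, 9.72 and 9.89 in SB202190. It was 9.27, 9.16 and 9.35 in Trichostatin A, below every other array. Kat2a fell by 0.44 (SE 0.11) in Trichostatin A (adjusted p 0.0041), and its other probe sets fell by 0.45 (1422972_s_at, adjusted p 0.0014) and 0.31 (1422971_at, adjusted p 0.0015). In LY294002 Kat2a differed from DMSO by -0.0035, with a 95% interval from -0.24 to 0.23, and in UO126 and SB202190 by -0.15 and 0.08, with adjusted p values of 0.817 and 0.847.

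Kat2b had a log2 signal of 8.84, 8.35 and 8.51 in DMSO, the widest DMSO spread among the 7 representative probe sets (SD 0.25), and of 9.09, 8.74 and 8.76 in LY294002. It was 8.84, 8.67 and 8.75 in UO126, 8.95, 8.94 and 8.94 in SB202190 and 8.50, 8.30 and 8.63 in Trichostatin A. The SB202190 arrays lay above all DMSO arrays and differed little from one another (SD 0.01), whereas the Trichostatin A arrays overlapped those of DMSO. Kat2b differed from DMSO by 0.38 (SE 0.12) in SB202190 with an adjusted p of 0.158, by 0.29 in LY294002 (adjusted p 0.157), by 0.19 in UO126 (adjusted p 0.754) and by -0.09 in Trichostatin A (adjusted p 0.560). With the replicate number as a block the first 2 of these passed the threshold, with adjusted p values of 0.0249 in SB202190 and 0.0389 in LY294002. They also passed without DMSO replicate 1, the highest DMSO array (0.0296 and 0.0232). Its other 2 probe sets were dim, with means of 6.43 and 5.94, did not follow the bright one over the 15 arrays (Pearson r -0.35 and 0.11) and differed from DMSO in SB202190 by -0.05 and 0.07 and in LY294002 by -0.19 and -0.13. With the probe sets averaged the Kat2b difference in LY294002 was -0.0072 (adjusted p 0.955). The bright probe set is of the kind whose probes can match more than 1 similar transcript, as its name ending in _s_at says, and its signal may include such transcripts.

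The log2 ratio of Kat2b to Kat2a was higher than in DMSO by 0.30 in LY294002, 0.33 in UO126, 0.29 in SB202190 and 0.35 in Trichostatin A. It was above DMSO in all 12 same-numbered pairs, the smallest difference being 0.17. The replicate numbers were not taken to pair Trichostatin A with DMSO, so the pairs of that treatment match by number alone. The ratio rests on the bright Kat2b probe set, which the other 2 did not follow. The same 3 DMSO arrays stand in every one of these differences, so they are not separate observations, and they were not tested.

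Kat5 encodes TIP60. Its log2 signal was 9.27, 9.01 and 9.15 in DMSO, 9.44, 9.22 and 9.20 in LY294002, 9.10, 9.07 and 9.02 in UO126, 9.25, 9.30 and 9.22 in SB202190 and 8.76, 8.61 and 8.74 in Trichostatin A. The Trichostatin A arrays lay below all 12 others, and the kinase inhibitor arrays overlapped those of DMSO. Kat5 fell by 0.44 (SE 0.09) in Trichostatin A with an adjusted p of 0.00061, the smallest of the 7 genes in that comparison, and its other probe set, 1433981_s_at, fell by 0.26 (adjusted p 0.0155). The differences in LY294002, UO126 and SB202190 were 0.14, -0.08 and 0.11, with adjusted p values of 0.336, 0.916 and 0.702. Of the 2 promoter windows that RefSeq gives for Kat5 (250 bases before to 50 after a start site, GRCm38.p6), the one at chr19:5610045-5610344 on the minus strand is shown because it is the only member window with an E-box, the letters CACGTG, which 7.15% of all 32851 windows hold. Capitals mark the E-box and the CCAAT box, the latter found in 37.4% of all windows.

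Kat5 promoter: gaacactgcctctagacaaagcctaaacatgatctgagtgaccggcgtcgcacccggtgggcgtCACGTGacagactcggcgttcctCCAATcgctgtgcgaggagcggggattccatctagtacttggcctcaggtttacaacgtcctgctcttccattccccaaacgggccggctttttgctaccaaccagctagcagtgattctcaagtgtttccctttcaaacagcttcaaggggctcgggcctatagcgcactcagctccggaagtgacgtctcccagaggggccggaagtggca

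BRD2 and BRD3 are the BET proteins of the set. Brd2 had a log2 signal of 10.88, 10.64 and 10.58 in DMSO, 11.23, 11.18 and 10.9996 in LY294002 and 10.43, 9.93 and 10.16 in Trichostatin A, 3 ranges that did not overlap. UO126 arrays were at 10.63, 10.72 and 10.67, within the DMSO range, and SB202190 arrays at 10.99, 10.88 and 10.92. Brd2 was the 1 gene past the threshold against DMSO in both directions. It rose by 0.44 (SE 0.11, fold 1.35, adjusted p 0.0254) in LY294002 and fell by 0.53 (SE 0.11, adjusted p 0.0012) in Trichostatin A, with a DMSO signal 1.44 times that of Trichostatin A. Its second probe set, 1423502_at, rose by 0.50 (adjusted p 0.0020) and fell by 0.39 (adjusted p 0.0011), and followed the first with a Pearson r of 0.95 over the 15 arrays. In SB202190 Brd2 differed by 0.23 (adjusted p 0.443) and in UO126 by -0.03 (adjusted p 0.991).

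Brd3 had a log2 signal of 9.55, 9.44 and 9.52 in DMSO, 10.02, 9.85 and 9.86 in LY294002, 9.82, 9.70 and 9.73 in UO126, 9.54, 9.60 and 9.77 in SB202190 and 9.45, 9.37 and 9.65 in Trichostatin A. All LY294002 and UO126 arrays lay above all DMSO arrays, and those of Trichostatin A overlapped them. Brd3 rose by 0.41 (SE 0.09, fold 1.33, adjusted p 0.0106) in LY294002 and differed by 0.25 in UO126 (adjusted p 0.258), 0.13 in SB202190 (adjusted p 0.625) and -0.02 in Trichostatin A (adjusted p 0.894, 95% interval -0.21 to 0.17). The other 3 Brd3 probe sets gave another answer in Trichostatin A, where 1450902_at fell by 0.27 (adjusted p 0.0402), 1460328_at by 0.34 (adjusted p 0.0081) and 1423199_at by 0.33 (adjusted p 0.0107). In LY294002 they differed by 0.21, 0.18 and 0.19, with adjusted p values of 0.228, 0.267 and 0.260. The call for Brd3 therefore depends on which probe set stands for the gene, in both comparisons.

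The log2 ratio of Brd3 to Brd2 was 0.51 higher in Trichostatin A and 0.27 higher in UO126 than in DMSO, and 0.03 lower in LY294002, the difference there being -0.03 with a SD of 0.09. With the other 3 Brd3 probe sets falling in Trichostatin A, the first of these ratios rests on the brightest Brd3 probe set.

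Brd2 and Brd3 rose with LY294002, and of the 3 Brd2 windows the 2 with a FOXO or NRF1 match are printed below with the Brd3 window. The other Brd2 window holds only a GC box among the sites searched. So does the window of Ep300, which also rose with LY294002, and neither is printed. PI3K inhibition is known to release FOXO transcription factors to the nucleus, and a part of these factors in the differences was not tested. Of the 11 member windows, 1 holds the FOXO core letters TGTTTAC (on either strand), which 3.65% of all windows hold. That window is the Brd2 one at chr17:34119851-34120150, and it also holds a GC box (GGGCGG, in 35.7% of all windows). The Brd2 window at chr17:34122558-34122857 holds the palindromic NRF1 site, in 0.971% of all windows. The Brd3 window at chr2:27475349-27475648 holds GC boxes. All 3 lie on the minus strand of GRCm38.p6, are printed from 5′ to 3′ as RefSeq gives them, and carry the matches in capitals, which on the reverse strand read GTAAACA for the FOXO letters and CCGCCC for the GC box.

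Brd2 promoter, inner start: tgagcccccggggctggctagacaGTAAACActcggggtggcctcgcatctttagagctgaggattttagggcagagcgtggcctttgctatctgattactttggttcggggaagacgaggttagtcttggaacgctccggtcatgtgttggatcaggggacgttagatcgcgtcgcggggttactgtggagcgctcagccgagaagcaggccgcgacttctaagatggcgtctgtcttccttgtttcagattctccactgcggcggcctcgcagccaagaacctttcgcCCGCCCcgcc
Brd2 promoter, outer start: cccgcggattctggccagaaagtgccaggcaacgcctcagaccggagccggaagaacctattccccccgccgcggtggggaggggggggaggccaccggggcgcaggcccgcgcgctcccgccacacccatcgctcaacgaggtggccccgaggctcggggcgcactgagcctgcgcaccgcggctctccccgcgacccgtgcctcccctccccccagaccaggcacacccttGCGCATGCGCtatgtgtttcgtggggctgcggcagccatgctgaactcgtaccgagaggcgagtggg
Brd3 promoter: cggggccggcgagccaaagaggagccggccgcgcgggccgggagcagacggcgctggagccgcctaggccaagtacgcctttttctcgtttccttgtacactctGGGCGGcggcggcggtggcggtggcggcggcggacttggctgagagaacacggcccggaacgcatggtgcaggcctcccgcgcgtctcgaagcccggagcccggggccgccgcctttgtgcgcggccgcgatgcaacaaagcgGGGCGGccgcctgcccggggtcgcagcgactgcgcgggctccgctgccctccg

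Across the 7 genes RefSeq gave 11 windows, with 6 to 49 CpG dinucleotides (median 24, against 7 over all windows), and 10 of 11 lay above that median. The GC box was found in 6 of 11 windows, the CCAAT box in 2, and neither the CREB site TGACGTCA nor the TATA letters TATAAA in any, against 1.79% and 13.6% of all windows. A match of letters is a description and no evidence of binding, and both strands were searched.

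The comparison of each inhibitor with DMSO gave the following counts. In LY294002, 8.62% of the 34562 probe sets tested passed the threshold, 6.83% as higher and 1.78% as lower, and 3 of the 7 genes were higher with 0 lower. Of the 18 member probe sets tested, 4 were higher, the 2 of Brd2 and 1 each of Ep300 and Brd3. At an unadjusted p of 0.05 in the limma fit, 5 of the 7 genes were higher, Crebbp and Kat2b in addition to those called. The share of all probe sets at that unadjusted p was not counted, so this count has no background beside it. The arrays of the 2 groups did not overlap for Ep300, Brd2 and Brd3, as for 23.7% of all probe sets tested. The median difference of the 7 genes was 0.29, against -0.02 over all probe sets tested, and the size of the Brd2, Ep300 and Brd3 differences was above that of 94.5%, 93.5% and 93.1% of all probe sets. This sets the brightest probe set of each gene against bright and dim ones together. With quantile normalization all 7 differences were lower, at 0.32 for Ep300, 0.30 for Brd2 and Brd3, 0.22 for Kat2b, 0.18 for Crebbp, 0.04 for Kat5 and -0.11 for Kat2a. The calls of Brd2, Ep300 and Brd3 were lost when the 6 arrays of both groups were fitted alone (adjusted p 0.0865 for Brd2, 0.0785 for Ep300 and 0.0619 for Brd3). They were also lost without DMSO replicate 2 (0.1005, 0.10 and 0.0524) and without LY294002 replicate 1 (0.109, 0.0800 and 0.0566). Without LY294002 replicate 2 the calls of Ep300 (0.0534) and Brd2 (0.0772) were lost, and that of Brd2 also without DMSO replicate 3 (0.116) and with quantile normalization (0.0617). All 3 calls held with the replicate number as a block (adjusted p 0.0045 for Brd2, 0.0047 for Ep300 and 0.0024 for Brd3).

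In Trichostatin A, 43.6% of the 34902 probe sets tested passed, 23.0% as higher and 20.6% as lower, and 4 of the 7 genes were lower with 0 higher. Of the 18 member probe sets tested 12 were lower and 0 higher. All 19 differences were below 0, including that of the dim Crebbp probe set that was not tested. Probe sets of the same gene are not separate observations. The median difference of the 7 genes was -0.44, against -0.06 over all probe sets tested, which again sets the brightest probe sets against bright and dim ones together. The arrays of the 2 groups did not overlap for 4 of the 7 genes, as for 49.1% of all probe sets tested. The members were within the bulk of this broad response in size, since the Brd2 difference was larger than that of 77.1% and the Crebbp difference larger than that of 75.0% of all probe sets. Crebbp, Kat2a, Kat5 and Brd2 stayed past the threshold in each of the alternatives, including those that left out 1 array. With the mean of all probe sets standing for a gene, Kat2b and Brd3 also fell (adjusted p 0.0452 and 0.0178).

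UO126 and SB202190 gave 0 calls among the 7 genes, where 1.93% and 1.94% of all probe sets passed by limma. At an unadjusted p of 0.05, Brd3 was higher in UO126, and Ep300 and Kat2b were higher in SB202190, again with no count over all probe sets. All 7 differences in SB202190 were above 0, with a median of 0.13, and 4 of 7 in UO126, with a median of 0.09.

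**Figure D2:**
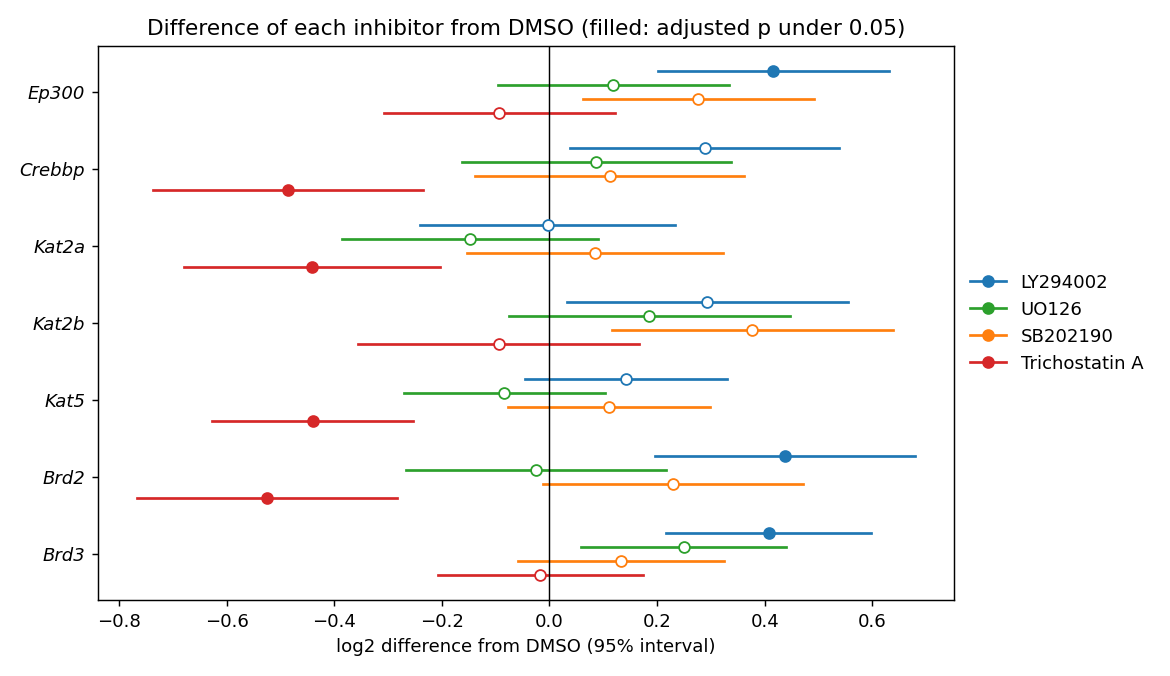
Log2 difference from DMSO of the representative probe set of each of the 7 genes (x axis, with 95% intervals of the limma fit) in the 4 inhibitors, 1 colour for each; filled points are past the threshold and the vertical line marks no difference. For Trichostatin A the intervals of Crebbp, Kat2a, Kat5 and Brd2 lie below 0, and for LY294002 those of Ep300, Brd2 and Brd3 lie above it.

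Each inhibitor was also set against the others, since the same DMSO arrays stand in all 4 comparisons above. Against LY294002, Trichostatin A had lower signals of all 7 genes, where 40.0% of all probe sets passed and 20.3% were lower. The difference was -0.96 for Brd2 (SE 0.11, adjusted p 2.8e-06), with LY294002 at 1.95 times the Trichostatin A signal, -0.77 for Crebbp (adjusted p 4.36e-05) and -0.58 for Kat5 (adjusted p 4.2e-05). It was -0.51 for Ep300, -0.44 for Kat2a, -0.42 for Brd3 and -0.39 for Kat2b, with adjusted p values of 0.00059, 0.0045, 0.0010 and 0.0181. Against SB202190, 6 of 7 were lower (38.3% of all probe sets passed, 17.3% as lower), the brightest Brd3 probe set being the exception with -0.15 (adjusted p 0.219). The other 3 Brd3 probe sets were lower, with differences of -0.30, -0.40 and -0.26 (adjusted p 0.0247, 0.0027 and 0.0416), and their average with the brightest gave -0.28 (adjusted p 0.0077). Against UO126, 5 of 7 were lower (42.6% passed, 20.1% as lower), Ep300 and Kat2b being the exceptions with -0.21 (adjusted p 0.107) and -0.28 (adjusted p 0.0796, or 0.0199 with the replicate number as a block). The differences from UO126 were -0.57 for Crebbp, -0.50 for Brd2, -0.36 for Kat5, -0.29 for Kat2a and -0.27 for Brd3. Several of these calls lay near the threshold. That of Kat2a was lost without UO126 replicates 1 or 3, or without Trichostatin A replicates 1 or 2 (0.163, 0.127, 0.0847 and 0.136), and that of Brd3 without UO126 replicate 1 or Trichostatin A replicates 1 or 2 (0.0881, 0.0766 and 0.104). Ep300 passed without UO126 replicate 2 (0.0368), without Trichostatin A replicate 3 (0.0455) and with quantile normalization (0.0117), and Kat2b passed without Trichostatin A replicate 3 (0.0492) and with quantile normalization (0.0066). Kat2b lost its call against LY294002 without LY294002 replicate 1 (0.101) or Trichostatin A replicate 2 (0.0937) and with its probe sets averaged (-0.17, adjusted p 0.0574), and Brd3 passed against SB202190 with quantile normalization (0.0397).

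Among the kinase inhibitors, Brd2 was higher in LY294002 than in UO126 by 0.46 (adjusted p 0.0241), the 1 call of the 7 genes, where 5.64% of all probe sets passed. LY294002 and SB202190 (4.60% of all probe sets passed) and UO126 and SB202190 (5.22%) gave 0 calls among the 7 genes in the limma fit, with 1 and 2 at an unadjusted p of 0.05. For these unadjusted counts no share of all probe sets was taken. The Brd2 call was lost without LY294002 replicates 1 or 2 (0.105 and 0.0807) and without UO126 replicates 1, 2 or 3 (0.0628, 0.0629 and 0.0756). With the replicate number as a block, Ep300 was also higher in LY294002 than in UO126 by 0.30 (adjusted p 0.0379), Brd3 was higher in LY294002 than in SB202190 by 0.27 (adjusted p 0.0405), and UO126 and SB202190 again gave 0 calls.

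In the order of the 5 treatment means, LY294002 was highest for 5 genes (Ep300, Crebbp, Kat5, Brd2 and Brd3) and SB202190 for Kat2a and Kat2b. Trichostatin A was lowest for all 7. Of the 28 steps between neighbours in these orders, 4 were past the threshold, and all 4 led into Trichostatin A, from DMSO for Crebbp and from UO126 for Kat2a, Kat5 and Brd2. The differences between the remaining 24 pairs of neighbours did not pass it.

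**Figure D3:**
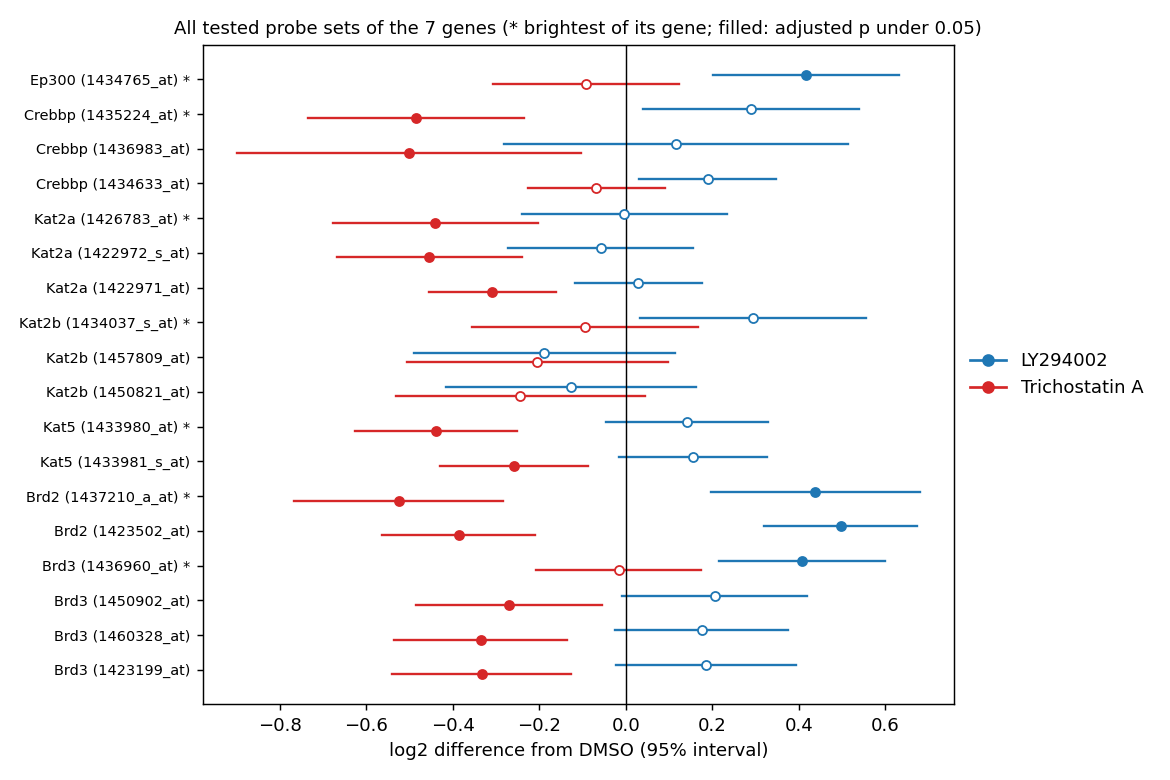
Log2 difference from DMSO (x axis, with 95% intervals of the limma fit) of the 18 tested probe sets of the 7 genes (y axis, grouped by gene) in LY294002 and in Trichostatin A, filled where past the threshold, the brightest probe set of a gene being marked by a star. Both Brd2 probe sets lie on opposite sides of 0 in the 2 treatments, whereas the brightest Brd3 probe set in Trichostatin A lies at -0.02 and the other 3 between -0.34 and -0.27.

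The probe sets of a gene followed the representative one closely for Brd2 (r 0.95), Kat5 (0.90), Kat2a (0.90 and 0.75) and the brighter Crebbp sets (0.86 and 0.84), less so for Brd3 (0.77, 0.76 and 0.68). These are Pearson correlations over the same 15 arrays, which share treatment, RNA and normalization. Between genes they ran from 0.49 for Kat2a and Brd3 to 0.93 for Kat5 and Brd2. The named genes whose signal was most like that of a member over the 15 arrays, among 34149 probe sets with a mean of at least 50, were Zfp704 and Tug1 for Ep300 (r 0.945 and 0.944), Arhgef25 and Dsel for Crebbp (0.977 each), Gnb1l and Cep128 for Kat2a (0.966 and 0.964) and Fam172a and Aco1 for Kat2b (0.971 and 0.939). For Kat5 they were Tonsl and Rcor3 (0.976 and 0.97), for Brd2 Csad and 2010320M18Rik (0.964 and 0.961), and for Brd3 Dynlrb1 and Specc1l (0.963 and 0.947).

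The partners of these enzymes and readers were followed as 8 lists, 151 genes in all, counted once each. In LY294002, 20 of the 150 tested were higher and 0 lower (13.3%, against 8.62% over all probe sets, 6.83% as higher and 1.78% as lower). The median difference was 0.18, against -0.02 over all probe sets, and 128 of 150 differences were above 0. This sets the brightest probe set of each list gene against bright and dim ones together. The share of differences above 0 over all probe sets was not counted. The LY294002 count changed with the fit, to 1 higher and 0 lower from the 6 arrays alone, 46 and 2 with the replicate block, and 17 and 4 with quantile normalization. It was 8 and 1 with probe sets averaged, and 8 and 0 without DMSO replicate 2, DMSO replicate 3 or LY294002 replicate 1, but 42 and 1 without DMSO replicate 1. In Trichostatin A 38 were higher and 45 lower of 151 (55.0%, against 43.6%, median -0.05). In UO126 and SB202190, 1 gene each passed by limma (Hdac5 and Ncoa1), with 15 and 18 at an unadjusted p of 0.05. No share of all probe sets was counted for the unadjusted p. Hdac5, a class IIa deacetylase, is named because it was the lone call, and was chosen after its values were seen. The genes named below are the 3 of each list with the largest difference in Trichostatin A among those past the threshold.

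For the acetyltransferases themselves, 15 others were tested, of which 2 were higher in LY294002, and 2 were higher and 3 lower in Trichostatin A. Over all probe sets tested, 6.83% were higher and 1.78% lower in LY294002, and 23.0% were higher and 20.6% lower in Trichostatin A. These shares are the background for the counts of this list and of each list below. Ncoa1 and Ncoa3, nuclear receptor coactivators, rose by 0.82 and 0.56 and Clock, the circadian transcription factor, fell by 0.75 in Trichostatin A. Ncoa1 also rose in LY294002, by 0.61 (adjusted p 0.0027).

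In the complexes around GCN5 and PCAF, 25 SAGA and ATAC subunits were tested, of which 2 were higher in LY294002, and 3 were higher and 10 lower in Trichostatin A. Taf9b, a subunit that SAGA shares with TFIID, fell by 1.75 and Kat14, the second acetyltransferase of ATAC, by 0.66, while Usp22, the ubiquitin protease of SAGA, rose by 1.03. Around TIP60, 15 NuA4 subunits gave 4 higher in LY294002, and 4 higher and 5 lower in Trichostatin A. Meaf6 and Epc1 were among both, rising by 0.49 and 0.48 in LY294002 (adjusted p 0.0119 and 0.0069) and falling by 1.43 and 0.88 in Trichostatin A, and Ruvbl1, an ATPase of the complex, fell by 0.85 in Trichostatin A. Of 16 partners of the related MYST acetyltransferases, 1 was higher in LY294002, and 2 were higher and 8 lower in Trichostatin A, where Jade2, a scaffold of the HBO1 complex, fell by 1.02, and Msl1 and Msl3, subunits of the MOF complex, by 1.01 and 0.74.

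Of the transcription factors and cofactors that recruit p300 and CBP, 2 of 20 tested were higher in LY294002, and 7 of 21 were higher and 3 lower in Trichostatin A. Sox9 fell by 1.14 (adjusted p 9.74e-06) and Atf4, a stress response factor, by 1.03, and Cited4, which binds p300 and CBP, rose by 1.11. Of the 24 other bromodomain readers, 4 were higher in LY294002, and 6 were higher and 8 lower in Trichostatin A, with Baz2a, a subunit of a nucleolar remodelling complex, at 1.47, the ATPase Atad2 at -1.27 and Brdt, the testis BET protein, at 0.93. Of 18 BET partners and members of the P-TEFb kinase machinery of elongation, 4 were higher in LY294002 (none from the 6 arrays alone, and 0 higher and 1 lower with probe sets averaged), and 9 were higher and 4 lower in Trichostatin A. Mllt3, a subunit of the super elongation complex, rose by 2.17 (adjusted p 3.77e-09), Supt5, an elongation factor, by 0.93, and Nsd3, a BET-binding methyltransferase, by 0.82.

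Of the 17 histone deacetylases, 1 was higher in LY294002, and 5 were higher and 4 lower in Trichostatin A, where the sirtuins Sirt7 and Sirt2 rose by 1.66 and 0.78 and Sirt1 fell by 0.69. Of 12 tested genes known to respond to deacetylase inhibitors, 9 were higher and 1 lower in Trichostatin A, against 23.0% and 20.6% of all probe sets. In LY294002, 3 were higher, against 6.83% of all probe sets. The list was chosen with earlier results of these data known, so it gives no separate check of the Trichostatin A label. In Trichostatin A the chaperone Hspa2 was at 2.88, the neuronal stathmin Stmn2 at 2.47 and the metallothionein Mt1 at 2.34. Mt1 was past the threshold in UO126 and SB202190 as well, at -0.93 and 1.11.

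**Figure D4:**
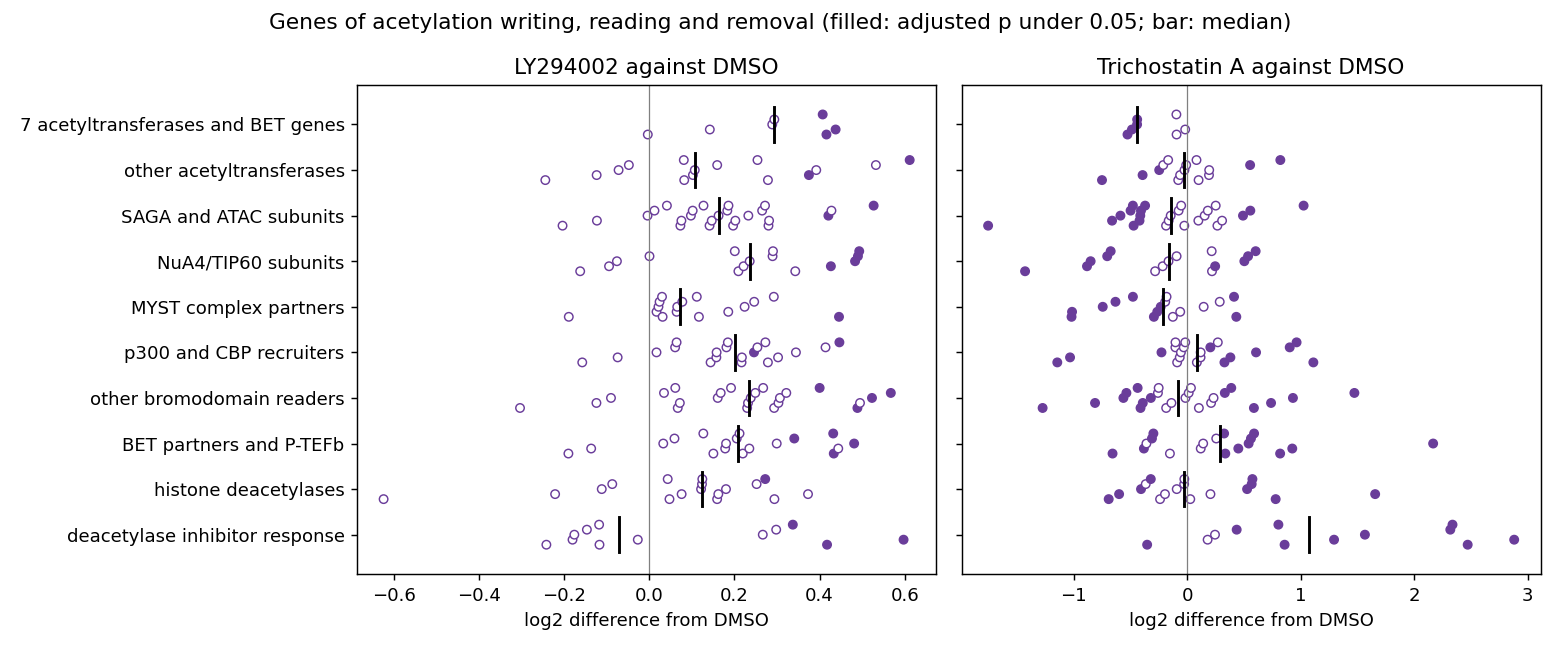
Log2 difference from DMSO (x axis, on a wider scale in the second panel) of every tested gene of 9 lists and of the 7 members (y axis) in LY294002 and in Trichostatin A, filled where past the threshold, with the median of each list as a bar. The members' median is 0.29 in LY294002 and -0.44 in Trichostatin A, where the list of deacetylase inhibitor response genes has a median of 1.08.

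Cell type markers moved in the same comparisons. Of all probe sets tested, 6.83% were higher and 1.78% lower in LY294002, and 23.0% were higher and 20.6% lower in Trichostatin A. All 16 chondrocyte markers were at or above a signal of 50 in all treatments. In Trichostatin A all 16 fell, with a median of -1.20, and their summed linear signal ran from 39155 to 52798 against 80795 to 86114 in DMSO. In LY294002 5 of 16 rose and all 16 differences were above 0, with sums from 105037 to 108197, the count being 1 with quantile normalization, 3 from the 6 arrays alone, 8 with the replicate block and 1 and 2 without DMSO replicate 2 and LY294002 replicate 1. Without the Trichostatin A arrays it was 10. In UO126 the sums ran from 103935 to 120985. Skeletal muscle markers had sums of 3175 to 7117 in DMSO and 1779 to 1905 in Trichostatin A, where 11 of 14 tested fell, and Myf5 and Myh8 were below a signal of 50 in DMSO, LY294002 and Trichostatin A. Macrophage markers had sums of 3325 to 4480 in DMSO and 2945 to 3346 in Trichostatin A, with 10 of 15 tested lower and 1 higher. Of 9 fibroblast markers 7 were lower and 1 higher in Trichostatin A, with sums of 46875 to 56583 in DMSO and 31488 to 35903 in Trichostatin A. Of the 10 endothelial markers, Pecam1, Cdh5 and Tie1 were below a signal of 50 in every treatment, and the sums ran from 2301 to 2549 in DMSO and from 1964 to 2108 in Trichostatin A, with 1 of 7 tested higher and 1 lower. Of the 6 erythroid markers, Hba-a1 and Hbb-y were below it in every treatment, and 1 of 4 tested was higher in Trichostatin A (sums 765 to 825, against 701 to 774 in DMSO). Of the 8 epithelial markers 7 were tested, and Dsp was higher in Trichostatin A and lower in LY294002 (differences of 2.99 and -0.83), while the sums ran from 2113 to 2634 in DMSO and from 2364 to 2614 in Trichostatin A. The part of these shifts in the differences of the 7 genes was not tested, and fewer cells of a type and less RNA per cell cannot be told apart in such cultures.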

How the data were processed

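Total RNA of 15 chondrocyte cultures, 3 for each of 5 treatments, was measured on 1-colour Affymetrix mouse arrays, and sample titles gave the group and replicate number of each. The deposited values are log2 signals that the authors normalized between arrays. GC-RMA is named for these arrays and RMAExpress for gene set work in the same study, and which made the deposited log2 signals is not settled. The 64 control probe sets were dropped from 45101. Of the remaining 45037, 34945 carried 1 gene symbol, 932 several and 9160 none, and 34741 gene identifiers were found in RefSeq, which changed 0 symbols. No array matched another as a duplicate (highest correlation 0.998), and 0 columns of samples were left unused.

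The members and the lists of other genes were chosen with earlier results of these data known. Testing required a mean of at least log2 of 50 in either group compared. limma 3.58.1 in R 4.3.3 (lmFit, contrasts.fit, eBayes) fitted 1 mean per treatment to all 15 arrays, leaving 10 residual degrees of freedom, and p values were adjusted over all probe sets tested. An exact permutation test of 3 against 3 arrays cannot go below 0.1 and was not used. All member probe sets are named, of each other list the 3 genes with the largest difference in Trichostatin A among those past the threshold, and for each member the 2 genes with the highest correlation. The procedure was tested on simulated data.

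Pairing by replicate number was checked through the correlation of same-numbered arrays after removal of each treatment's mean. With DMSO these correlations were 0.771, 0.407 and 0.629 in LY294002, 0.719, 0.541 and 0.329 in UO126 and 0.237, 0.302 and 0.327 in SB202190. The numbers were taken to pair these arrays, though arrays of different numbers were not compared in this way. The numbers were also taken to pair the kinase inhibitors with one another (lowest 0.219) and Trichostatin A with UO126 and with SB202190. They were not taken to pair Trichostatin A with DMSO (0.242, 0.480 and 0.0268) or LY294002 (lowest -0.113). Alternatives were this replicate block, the 6 arrays of the 2 groups alone, no filter, filters at 100 in either group and at 50 over all arrays, quantile normalization, centring on the median, an eBayes prior with trend and robust estimation, averaging a gene's probe sets, and leaving out each array. A fit without the Trichostatin A arrays, and the alternatives for the pairs of kinase inhibitors, were added after the values were seen. Promoter windows and gene names came from RefSeq, GRCm38.p6.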

Additional observations from a re-analysis of the deposited data

How the results depend on the processing

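Over all 10 pairs of treatments, of 420 differences of single genes with 1 array left out, 379 kept their direction and side of the threshold, 23 lost the call, 5 gained one and 13 changed sign, and of 672 under other alternatives 642, 10, 13 and 7 did. The count of the 7 genes called in LY294002 was 3 and became 5 with the replicate block, by Crebbp (adjusted p 0.0364) and Kat2b (0.0389), 0 with the 6 arrays alone, and 0 to 4 with 1 array left out. In SB202190 the count was 0 and became 1 with the replicate block and with quantile normalization, by Kat2b (0.0249 and 0.0390), and 0 to 1 with 1 array left out. In Trichostatin A against UO126 it was 5 and became 3 with centring on the median and 3 to 7 with 1 array left out, and the replicate block added Kat2b (0.0199). In LY294002 against UO126 the count was 1 and became 2 with the block, by Ep300 (0.0379), and 0 to 1 with 1 array left out, and in LY294002 against SB202190 it was 0 and became 1 with the block, by Brd3 (0.0405). The block changed no other call of a member in the 10 pairs. Alternatives for the 3 pairs of kinase inhibitors were chosen after seeing the data. With a gene's probe sets averaged, Kat2b (-0.18, adjusted p 0.0452) and Brd3 (-0.24, adjusted p 0.0178) were also lower in Trichostatin A than in DMSO, and Brd3 was not past the threshold in LY294002 (0.24, adjusted p 0.0622). The sign changed with centring on the median, Kat2a in LY294002 to 0.047 and Brd3 in Trichostatin A to 0.021, and with probe sets averaged for Kat2b from 0.29 to -0.0072 in LY294002 and from 0.19 to -0.026 in UO126, for Crebbp in UO126 to -0.0049 and for Brd2 in UO126 to 0.033. Quantile normalization turned Kat5 in LY294002 against SB202190 to -0.035. With 1 array left out, differences ran from -0.11 to 0.075 for Kat2a in LY294002, from -0.087 to 0.066 for Brd2 in UO126, and in Trichostatin A from -0.20 to 0.042 for Kat2b and from -0.097 to 0.042 for Brd3. They ran from -0.0040 to 0.17 for Kat2b in LY294002 against UO126, from -0.046 to 0.074 for Kat5 in LY294002 against SB202190 and from -0.12 to 0.041 for Crebbp in UO126 against SB202190. Over all probe sets, calls in LY294002 numbered 2362 higher and 616 lower, 2309 and 1410 with quantile normalization, 4609 and 1761 with the replicate block and 554 and 142 with the 6 arrays alone. In UO126 and SB202190, 667 and 669 calls became 1507 and 1905 with the block, 318 and 368 with the 6 arrays alone and 1017 and 1280 with quantile normalization. In LY294002 the NuA4 list of 4 calls gave 8 with the block and 0 from the 6 arrays alone, and the SAGA and ATAC list of 2 calls gave 7 and 0. Causes were not tested.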
